A study of Homo sapiens with 6 samples.

Results

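Histone genes were examined in polyA RNA-seq data of A549, a human lung adenocarcinoma cell line. Members were the protein-coding genes of the deposited table whose names start with HIST1H to HIST4H or follow the H1F, H2AF, H2BF or H3F names of histone variants. The rule found 91 of 58174 listed genes, namely 72 replication-dependent genes (HIST names), the 9 replacement histones H1F0, H1FX, H2AFX, H2AFZ, H2AFY, H2AFV, H2AFJ, H3F3A and H3F3B, and 10 further variant genes. Another 32 histone-named rows were pseudogenes, antisense or other noncoding entries and were left out. The comparison was between the parental line (Ctrl) and derivatives lacking the MIR21 locus after CRISPR/Cas9 editing with a pair of guide RNAs (MIR21-KO). Each group had 3 libraries, harvested 48 h after seeding in the same medium. MIR21-KO cells went back to single sorted cells, and the number of clones behind the 3 libraries is not given in the sources used here, whereas Ctrl was the parental population. Clone-to-clone variation and the deletion cannot be told apart, and p-values measure only the spread between these libraries, which may be technical.

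Histones package DNA into nucleosomes of H2A, H2B, H3 and H4, and the linker histone H1 binds between them. Replication-dependent histone mRNAs are made in bulk during S phase, and their 3′ end is usually formed by cleavage behind a conserved stem-loop, bound by the protein SLBP, instead of by addition of a polyA tail. Replacement histones are made throughout the cell cycle from genes with conventional polyadenylated mRNAs, and they are built into chromatin outside of replication. A library enriched with oligo(dT) beads captures polyadenylated mRNAs, and of the replication-dependent histones those transcripts that carry a tail or are carried over on the beads. The comparison addressed which histone transcripts enter the polyA fraction of these cells, and which of them differ upon MIR21 deletion.

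To show the sequence that sets the replication-dependent genes apart, annotated 3′ UTRs (GENCODE 29, GRCh38) were searched within 100 bases after the stop codon, on the transcript strand, for the 16-base core of the histone stem-loop. The pattern was GGNNC, followed directly by TTTTNA and GNNCC. The motif was present in 32 members and in 0 of the 18935 other genes with a 3′ UTR of at least 30 bases, thus in 0.169% of all 18989 genes searched. Among the replication-dependent genes with such a UTR, 31 of 37 had it, 23 to 68 bases after the stop codon. H2AFX was the one variant gene that had it. The elements below belong to the members with the motif that passed an FDR of 0.01 further on (HIST1H2BD, HIST1H4H and HIST2H2BE). HIST3H2A, which fell short of it (0.0143), a well-expressed gene without a change (HIST1H2AC) and H2AFX are given as well. Each is given 5′ to 3′ on the strand of its gene, with the core in capitals.
HIST1H2BD: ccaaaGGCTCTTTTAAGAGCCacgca
HIST1H4H: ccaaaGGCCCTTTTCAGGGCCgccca
HIST2H2BE: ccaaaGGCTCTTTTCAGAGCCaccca
HIST3H2A: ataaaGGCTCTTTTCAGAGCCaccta
HIST1H2AC: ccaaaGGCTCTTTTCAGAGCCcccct
H2AFX: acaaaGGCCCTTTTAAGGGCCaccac
They lie at chr6:26158582-26158607 (plus strand), chr6:26285126-26285151 (minus), chr1:149886183-149886208 (minus), chr1:228457364-228457389 (minus), chr6:26124664-26124689 (plus) and chr11:119094893-119094918 (minus), each in a 3′ UTR. In each of them the bases GGCTCT or GGCCCT on the left can pair with AGAGCC or AGGGCC on the right. The rest of the T run forms part of the loop between them. The core had 6 distinct versions among the 32 members. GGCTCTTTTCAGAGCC was found in 17 of them, and the version of H2AFX was found in no other member. HIST1H2BJ, described further on, had no match in its annotated 3′ UTR, which says only that these letters are not in this window.

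Annotated transcripts of many replication-dependent genes do not stop at the stem-loop. In 22 of the 31 genes with the motif the annotation runs at least 100 bases past it. For HIST2H2BE, which encodes an H2B protein, 1729 bases follow the core, and for HIST1H4H, a histone H4 gene, 630 bases do. A polyA signal, AATAAA or ATTAAA, was searched for in the last 50 bases of the transcript with the longest 3′ UTR. It occurred in 21 of the 72 genes, all of them among the 37 with a 3′ UTR of at least 30 bases. The share was 75.7% for the 18763 genes that are no members and have a 3′ UTR of at least 50 bases. Of the 9 replacement histones 7 had the signal. Genes without an annotated 3′ UTR could not score, so the 72 genes and the 18763 are not counted on the same basis. The remaining 51 genes comprised 16 with a 3′ UTR but no such signal and 35 without an annotated 3′ UTR of 30 bases.

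Levels in the libraries followed this order. The median over genes of the mean FPKM (fragments per length and library size) was 2.29 for the 21 genes with a polyA signal, 0.377 for the 16 genes without it and 0.105 for the 35 genes without an annotated UTR. Of the latter, 12 had no read in any library, whereas each gene of the other 2 groups had at least 1 read in some library. The order had a clear exception, since the 2 most abundant replication-dependent transcripts, HIST1H2BK and HIST1H1C, were both in the group without an annotated 3′ UTR. FPKM are relative to the annotated length, so a missing UTR shortens the length and changes the value, and the part of this in the order was not tested. The groups also depend on which end is annotated. The near-identical H4 copies HIST2H4A and HIST2H4B had similar means (5.485 and 5.428 FPKM). HIST2H4A fell in the group without a polyA signal and HIST2H4B in the group with it.

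**Figure D1:**
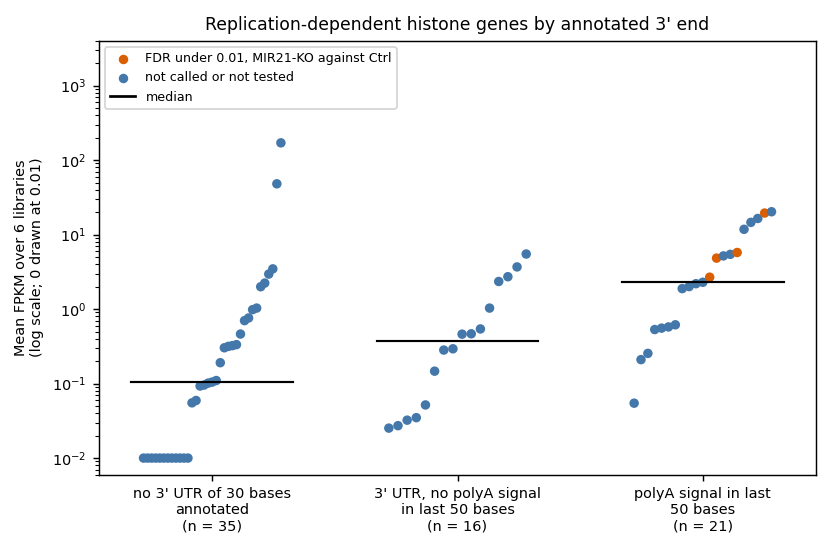
Mean FPKM over the 6 libraries (log axis, 0 drawn at 0.01) for the 72 replication-dependent histone genes, split by the 3′ end that GENCODE 29 annotates. Each point is a gene, lines are medians (0.105, 0.377 and 2.29 from left to right), and orange points are the 4 genes past an FDR of 0.01. All 4 lie in the group with a polyA signal, which holds 18 of the 34 tested genes. Of all tested genes 16.0% passed.

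The libraries held 10631667 to 14345209 reads, as recovered from the deposited FPKM. A count of 0 on a gene of 1 kb allows up to 0.219 to 0.279 FPKM, the worth of 3 reads, and these limits cover counting error only. KRT8 and KRT18, keratins of epithelial cells, were high (351.7 to 498.8 and 335.5 to 688.1 FPKM), KRT19 was at 82.9 to 128.9, EPCAM was low (0.389 to 1.65), and the leukocyte and endothelial markers PTPRC, CD3E, PECAM1 and CD34 did not exceed 0.0266 FPKM. CDH1, the epithelial cadherin, was lower in MIR21-KO cells (2.72 to 3.02 against 7.63 to 8.79 FPKM). MIR21 itself was at 0 in every library, so these values cannot show its deletion. A polyA library does not capture the mature miRNA. The listed entry (chr17:59841266-59841337) also lies within the gene VMP1 on the same strand, and how shared reads were counted is not given in the sources used here. The reason for the 0 was not tested. In limma on log2(FPKM + 0.1), 2568 of the 16006 genes averaging 0.5 FPKM or more passed an FDR of 0.01. These are 16.0% of the genes tested, with 7.66% higher and 8.38% lower in MIR21-KO cells.

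Replacement histones dominated the histone mRNA of these libraries. All 9 were tested, with a median of the mean levels of 84.2 FPKM, compared with 0.462 FPKM for the 72 replication-dependent genes. Of the latter 26 reached a mean of 1 FPKM, 7 reached 10 FPKM and 12 had no read. Between 24.1 and 27.6 of every 10000 reads fell on replacement and variant genes, and 2.43 to 2.76 fell on replication-dependent genes.

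The summed replication-dependent signal did not separate the groups. It was 373.3, 362.8 and 378.3 FPKM in Ctrl replicates 1 to 3 and 412.5, 380.9 and 313.2 FPKM in the MIR21-KO replicates. MIR21-KO replicates thus lay on both sides of the Ctrl range, and the ratio of the means was 0.993. The Ctrl libraries were closer to each other (371.5 ± 7.92, SD, n = 3) than the MIR21-KO libraries (368.9 ± 50.7, SD, n = 3). As in all bulk samples, fewer cells making a transcript and less of it per cell cannot be told apart. Most of the summed FPKM came from few genes. HIST1H2BK alone made up 43.7 to 48.8% and the 8 most abundant genes 81.8 to 83.8% of it. HIST1H2BK is listed at only 381 bases, which gives each of its reads more weight in FPKM, and its share of the reads was smaller. It held 883 of 3324 replication-dependent reads in Ctrl replicate 1 and 677 of 3057 in MIR21-KO replicate 3.

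By histone class the picture was less even. Replication-dependent H2A genes summed to 59.6, 65.8 and 70.2 FPKM in Ctrl and to 91.1, 82.8 and 70.1 FPKM in MIR21-KO, so that the third MIR21-KO library fell within the Ctrl range. Variant H2A genes, by contrast, summed to 419.7, 457.0 and 448.3 FPKM in Ctrl and to 400.9, 353.2 and 305.7 FPKM in MIR21-KO, without overlap. H2AFZ alone held 205.2, 230.5 and 224.3 FPKM of this in Ctrl and 157.9, 141.3 and 126.6 FPKM in MIR21-KO. Among the other tested variant H2A genes, H2AFX, H2AFV, H2AFJ and H2AFY2 overlapped between groups. H2AFY was lower and H2AFB2, with few reads, higher without overlap. With these sums the variant share of all H2A signal was 86.5 to 87.6% in Ctrl and 81.0 to 81.5% in MIR21-KO. For H3 it went the other way. The H3.3 genes and H3F3C summed to 218.1 ± 7.52 FPKM in Ctrl and 276.0 ± 30.1 FPKM in MIR21-KO (SD, n = 3 each), and their share of all H3 signal was 93.5 to 94.7% and 95.5 to 95.7%. These shares are ratios within a library and do not depend on its scaling. They were not tested, and with 3 against 3 libraries an exact permutation test cannot go below 0.10.

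**Figure D2:**
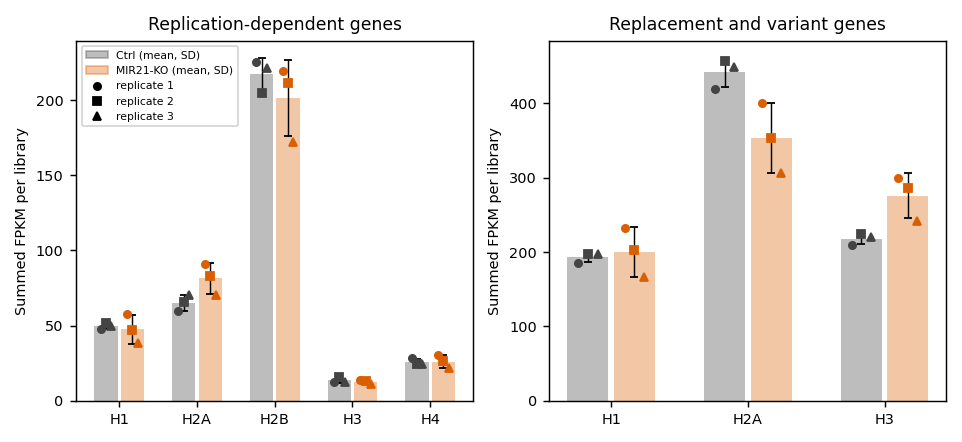
Summed FPKM per library of the histone genes of each class, for replication-dependent genes (left, H1 to H4) and for replacement and variant genes (right; no variant H4 gene is listed and variant H2B is near 0). Bars are means, error bars SD (n = 3), and symbols single libraries. Variant H2A was lower and variant H3 higher in each MIR21-KO library than in each Ctrl library, whereas replication-dependent H2B and H4 overlapped between groups. H2AFZ had the largest share of the variant H2A sum.

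Of the 46 members that reached the level for testing, 5 were called, which is 10.9% and below the 16.0% of all tested genes. They were 4 of 34 replication-dependent and 1 of 12 variant genes. The remaining 45 members were below a mean of 0.5 FPKM (at most 0.466), and 16 of these had no read at all. Median log2 fold changes, MIR21-KO over Ctrl, were -0.04 for the replication-dependent genes (16 positive, 18 negative) and 0.06 for the variant genes (7 positive, 5 negative), beside -0.02 for all genes tested, of which 51.5% were negative. At an FDR of 0.05 there were 8 of 34 replication-dependent genes, 5 of them higher, and 3 of 12 variant genes, beside 32.0% of all genes. Groups did not overlap for 12 of 34 replication-dependent genes, 6 in each direction, and for 6 of 12 variant genes, compared with 48.1% of all tested genes. The replication-dependent genes thus had 2 calls in each direction, and the called variant gene was lower.

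**Figure D3:**
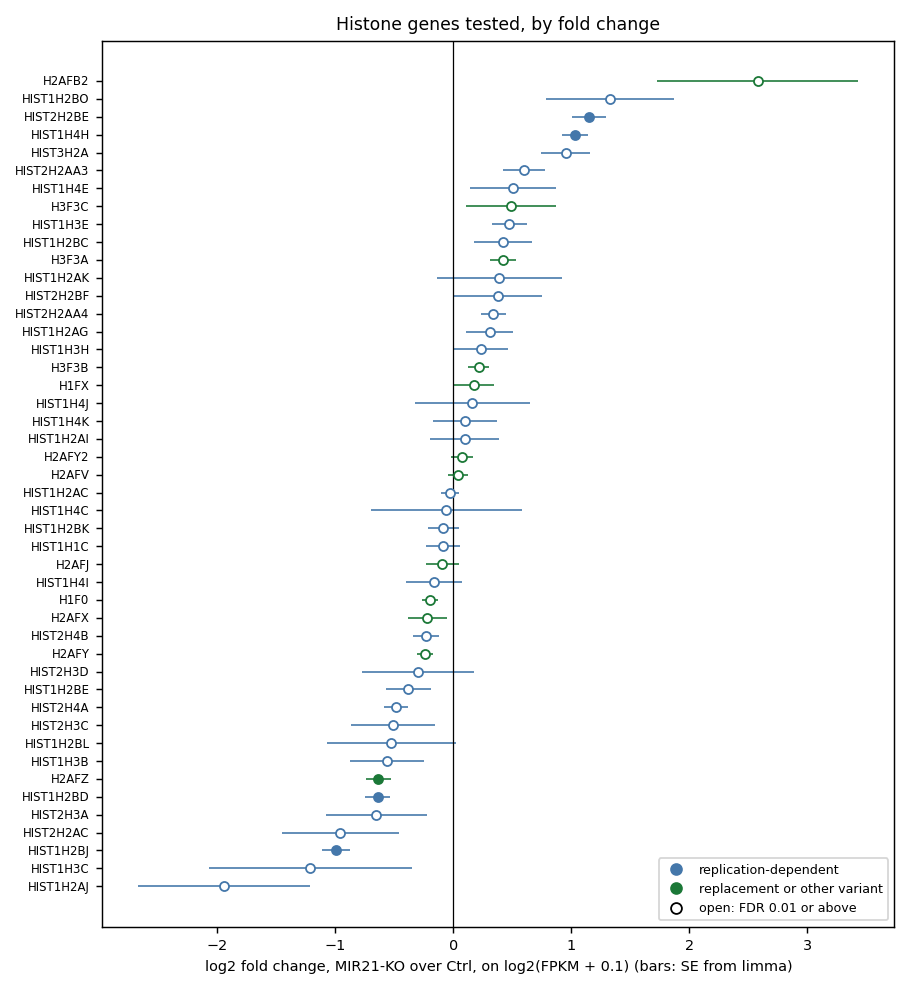
Log2 fold change of MIR21-KO over Ctrl on the log2(FPKM + 0.1) scale for the 46 tested histone genes, with the SE from limma as bars. Filled points passed an FDR of 0.01, namely HIST2H2BE and HIST1H4H on the right and H2AFZ, HIST1H2BD and HIST1H2BJ on the left. Wide bars at both ends belong to genes with few reads, such as H2AFB2 and HIST1H2AJ.

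Among the replacement histones, H2AFZ differed most clearly. It encodes H2A.Z, a variant placed in nucleosomes around transcription start sites (ENSG00000164032, chr4:99948086-99950388, minus strand). In Ctrl cells it had the highest FPKM of the histone genes. H3F3B, listed at 6134 bases against 2303 for H2AFZ, held more reads in each Ctrl library (7067, 6463 and 8062 against 6016, 5710 and 7065). Levels of H2AFZ were 205.2, 230.5 and 224.3 FPKM in Ctrl and 157.9, 141.3 and 126.6 FPKM in MIR21-KO. Each MIR21-KO library was below each Ctrl library, with a difference of -0.64 ± 0.11 (SE) on the log2 scale and, in limma, an FDR of 0.00554. H2AFV, which encodes the second H2A.Z protein, had 43.0, 46.8 and 44.4 FPKM in Ctrl and 50.7, 45.1 and 42.6 FPKM in MIR21-KO. Its groups overlapped (log2 fold change 0.04 ± 0.088, FDR 0.757). The FDR of H2AFZ lay between 0.000252 and 0.0329 over the alternatives. It exceeded 0.01 when Ctrl replicate 1, 2 or 3 (0.0206, 0.0297 and 0.0314) or MIR21-KO replicate 2 (0.0323) was left out. The same held in limma without trend and robust fitting (0.0120) and with the replicate number in the model, a replicate block (0.0329). It did not hold in voom on the recovered reads (0.000910).

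The H3.3 genes had higher values in MIR21-KO cells, short of the threshold. H3F3A (ENSG00000163041, chr1:226061851-226072001, plus strand) had 118.4, 125.7 and 123.7 FPKM in Ctrl and 178.1, 175.7 and 140.7 FPKM in MIR21-KO. The groups did not overlap, the third MIR21-KO library being nearest to Ctrl. Its log2 fold change was 0.42 ± 0.11. The FDR was 0.0285 in limma, 0.00164 without MIR21-KO replicate 3, and between 0.00164 and 0.115 over all alternatives. H3F3B, which encodes the same protein, had 90.5, 98.0 and 96.1 FPKM in Ctrl and 119.9, 110.4 and 100.5 FPKM in MIR21-KO, again without overlap (log2 fold change 0.21 ± 0.091, FDR 0.119). A processed pseudogene, H3F3AP4, was listed at 115.8 to 119.4 FPKM in Ctrl and 128.1 to 151.8 FPKM in MIR21-KO and shares 10.3% of the 100-base words of H3F3A. How reads were divided between these genes is not given in the sources used here, so both levels are uncertain. The order of H2AFZ and H3F3A was reversed between the groups, a pair singled out after their values were seen. Within a library H2AFZ was 1.73 to 1.83 times H3F3A in Ctrl and 0.804 to 0.900 times in MIR21-KO.

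**Figure D4:**
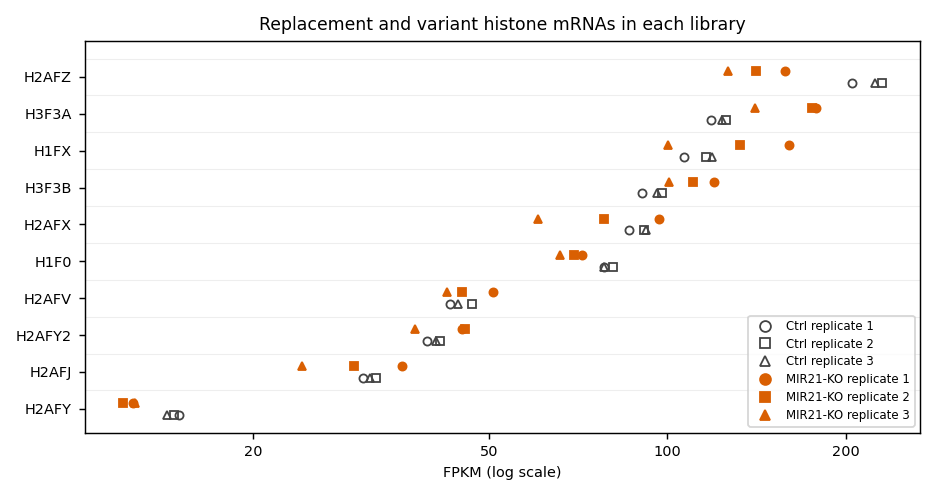
FPKM (log axis) of the 10 replacement and variant histone genes averaging 1 FPKM or more, shown for each library and ordered by their mean. Open grey symbols are Ctrl and filled orange symbols MIR21-KO libraries. H2AFZ lies to the left in MIR21-KO and H3F3A to the right, and the third MIR21-KO library (triangle) is the lowest MIR21-KO value for most genes.

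The remaining replacement histones did not pass an FDR of 0.01 in limma. H2AFY, which encodes the large variant macroH2A1, had 15.0, 14.7 and 14.4 FPKM in Ctrl and 12.6, 12.1 and 12.7 FPKM in MIR21-KO, without overlap (log2 fold change -0.24 ± 0.067, FDR 0.0327). H1F0, a linker histone known from differentiated and resting cells, had 78.3, 81.0 and 78.3 FPKM and 71.7, 69.7 and 65.8 FPKM, also without overlap (-0.20 ± 0.071, FDR 0.0746). Both genes had tight replicates, and their differences were small. H2AFY2, the macroH2A2 gene, ranged from 37.5 to 45.5 FPKM over all libraries with overlapping groups (0.07 ± 0.094, FDR 0.594). Of the other 9 variant genes, 4 had no read and only H3F3C and H2AFB2, both known from testis, reached the level for testing. H3F3C had 0.743, 0.616 and 0.415 FPKM in Ctrl and 1.39, 0.541 and 0.802 FPKM in MIR21-KO, with overlap (0.49 ± 0.38, FDR 0.367). H2AFB2 rested on 0 to 6 reads per library, with 0, 0 and 0.630 FPKM in Ctrl and 1.27, 0.704 and 1.33 FPKM in MIR21-KO, and had an FDR of 0.0590. It shares 100% of its 100-base words with H2AFB3, which was below the level for testing.

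For H1FX, H2AFX and H2AFJ, as for H2AFV above, the MIR21-KO libraries lay on both sides of the Ctrl range. H1FX, a linker histone gene, had 106.8, 116.3 and 118.9 FPKM in Ctrl and 160.7, 132.5 and 100.2 FPKM in MIR21-KO (log2 change 0.18 ± 0.17, FDR 0.465). H2AFX, whose protein is phosphorylated beside DNA breaks, had 86.1, 91.4 and 92.2 FPKM in Ctrl and 97.0, 78.2 and 60.5 FPKM in MIR21-KO (-0.22 ± 0.17, FDR 0.353). H2AFJ had 30.7, 32.2 and 31.5 FPKM and 35.7, 29.6 and 24.2 FPKM (-0.09 ± 0.14, FDR 0.642). In each of these 4 genes the first MIR21-KO library was above all Ctrl libraries and the third below. The third MIR21-KO library had the lowest MIR21-KO value in 8 of the 9 replacement histones and in 27 of the 46 tested members (58.7%), compared with 43.4% of all tested genes. H1FX and H2AFX are GC-rich genes, at 68.6% and 66.4% GC. When the dependence on GC content and length was removed from each library, 24.8% of genes were called (11.4% higher, 13.4% lower), among them 7 of 34 replication-dependent and 2 of 12 variant genes. H2AFX was then lower (-0.39, FDR 0.00138), while H1FX was at -0.01 (FDR 0.889). An antisense gene, H1FX-AS1, lies opposite H1FX and was listed at 6.29 to 10.5 FPKM. Whether reads were counted by strand is not given in the sources used here.

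Among the replication-dependent genes, an H2B and an H4 gene were higher in MIR21-KO cells. HIST2H2BE (ENSG00000184678, chr1:149884459-149886652, minus strand) had 2.69, 2.88 and 3.30 FPKM in Ctrl and 6.29, 7.89 and 5.94 FPKM in MIR21-KO. HIST1H4H (ENSG00000158406, chr6:26277609-26285638, minus strand) had 1.74, 1.68 and 1.76 FPKM in Ctrl and 3.63, 3.85 and 3.42 FPKM in MIR21-KO. For both genes the lowest MIR21-KO value was well above the highest Ctrl value. HIST2H2BE rose by 1.15 ± 0.14 on the log2 scale (FDR 0.00180) and HIST1H4H by 1.03 ± 0.11 (FDR 0.00105), each from at least 39 reads per library. Over the alternatives their FDRs reached 0.0122 and 0.0141, both with a replicate block. HIST2H2BE exceeded 0.01 without Ctrl replicate 1 (0.0110) or 2 (0.0113), and HIST1H4H without MIR21-KO replicate 2 (0.0105).

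Another 2 H2B genes were lower. HIST1H2BJ (ENSG00000124635, chr6:27125897-27132750, minus strand) had 7.19, 8.71 and 7.16 FPKM in Ctrl and 4.09, 3.44 and 3.90 FPKM in MIR21-KO. HIST1H2BD (ENSG00000158373, chr6:26158146-26171349, plus strand) had 25.5, 24.3 and 21.3 FPKM in Ctrl and 15.7, 13.5 and 16.4 FPKM in MIR21-KO. The groups did not overlap for either gene. HIST1H2BJ fell by 0.99 on the log2 scale, with an SE of 0.12 (FDR 0.00161), and HIST1H2BD fell by 0.64, with an SE of 0.11 (FDR 0.00532). HIST1H2BJ exceeded 0.01 without MIR21-KO replicate 2 (0.0107) and with a replicate block (0.0148). HIST1H2BD exceeded it when Ctrl replicate 1, 2 or 3 (0.0272, 0.0267 and 0.0137) or MIR21-KO replicate 2 (0.0245) was left out. It also did so without a filter on low values (0.0119) and in limma without trend and robust fitting (0.0136). With a replicate block HIST1H2BD was at 0.0267, and at 0.0152 when GC and length trends were removed as well. It was at 0.00455 in voom on all libraries, which called 21.8% of genes.

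The 3 most abundant replication-dependent transcripts had fold changes close to 0. HIST1H2BK, an H2B gene and the most abundant of all 72, had 182.1, 160.6 and 181.9 FPKM in Ctrl, and 184.2, 176.2 and 137.0 FPKM in the MIR21-KO libraries (change on the log2 scale -0.09 ± 0.13, FDR 0.657). HIST1H1C, which encodes the linker histone H1.2, had 47.1, 51.7 and 48.7 FPKM and 56.5, 46.1 and 38.1 FPKM (-0.09 ± 0.14, FDR 0.680). HIST1H2AC had 19.9, 19.8 and 21.6 FPKM and 20.2, 21.2 and 18.8 FPKM (-0.03 ± 0.077, FDR 0.803). The groups overlapped for each of them. Of the 100-base words of HIST1H2BK, 28.4% also occur in H2BFS, another H2B gene. H2BFS held 0 to 3 reads per library, against 658 to 956 for HIST1H2BK. How reads shared by both were treated is not given in the sources used here.

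For 3 H2A genes on chromosome 1 the values were higher in MIR21-KO cells, short of an FDR of 0.01. HIST3H2A had 6.32, 8.10 and 9.48 FPKM in Ctrl and 18.8, 16.1 and 11.9 FPKM in MIR21-KO. Its groups did not overlap, and the log2 fold change of 0.95 ± 0.21 had an FDR of 0.0143 in limma and of 0.00743 in voom. HIST2H2AA3 had 10.9, 13.9 and 14.2 FPKM and 24.2, 19.6 and 15.9 FPKM (0.60 ± 0.18, FDR 0.0408). HIST2H2AA4 had 13.6, 12.5 and 12.3 FPKM and 18.6, 15.4 and 15.0 FPKM (0.34 ± 0.10, FDR 0.0454). The last 2 are near-identical copies that share 96.8 to 100% of their 100-base words, so their reads cannot be assigned to either copy with certainty and they are not independent of each other. The same holds for the H4 copies HIST2H4A and HIST2H4B. HIST2H4A had 6.24, 6.74 and 6.24 FPKM in Ctrl and 4.58, 5.01 and 4.11 FPKM in MIR21-KO (-0.48 ± 0.10, FDR 0.0131), whereas the groups of HIST2H4B overlapped (-0.23 ± 0.11, FDR 0.148).

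**Figure D5:**
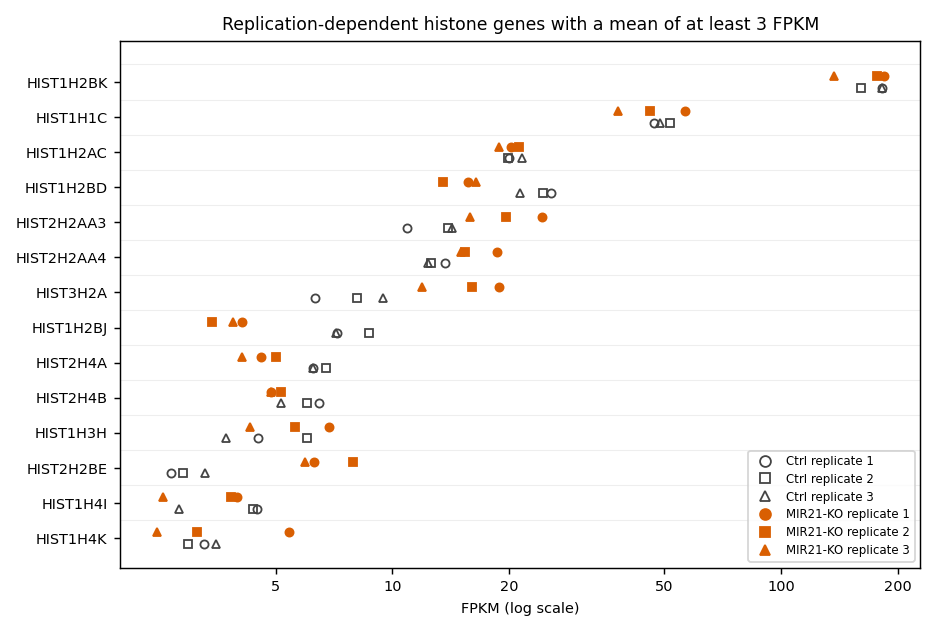
FPKM (log axis) of the 14 replication-dependent histone genes averaging 3 FPKM or more, shown for each library and ordered by their mean. Open grey symbols are Ctrl and filled orange symbols MIR21-KO libraries. HIST1H2BD and HIST1H2BJ lie to the left and HIST2H2BE to the right in MIR21-KO without overlap, while HIST1H2BK, HIST1H1C and HIST1H2AC overlap.

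Of the 34 tested replication-dependent genes, 26 had an FDR above 0.05, among them HIST1H2BK, HIST1H1C and HIST1H2AC described above. Among the H3 genes, HIST1H3H was the most abundant, with 4.51, 6.01 and 3.72 FPKM in Ctrl and 6.88, 5.61 and 4.30 FPKM in MIR21-KO, and its groups overlapped (0.23 ± 0.23, FDR 0.466). HIST1H3E had 1.70, 1.87 and 1.86 FPKM and 2.63, 2.93 and 2.16 FPKM, without overlap (0.47 ± 0.15, FDR 0.0505). The most negative log2 fold change was that of the H2A gene HIST1H2AJ, at -1.94 ± 0.73 (FDR 0.0862), but it rested on 0 to 7 reads per library. The most positive one was that of the H2B gene HIST1H2BO, at 1.33 ± 0.54 (FDR 0.107), from 2 to 15 reads.

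Called genes lay in more than one of the histone gene clusters. Replication-dependent genes lie in a cluster of 56 members on chromosome 6 (25726132 to 27893843), with 12 HIST2 and 3 HIST3 members on chromosome 1 and 1 on chromosome 12. In the chromosome 6 cluster 3 of 23 tested genes were called, 1 higher and 2 lower, and 1 of 10 tested HIST2 genes was called, shares that do not exceed the 16.0% of all tested genes. HIST2H2AC, an H2A gene next to HIST2H2BE (from chr1:149886975), had 2.42, 4.29 and 4.69 FPKM in Ctrl and 3.01, 2.51 and 0.791 FPKM in MIR21-KO, with overlapping groups (-0.96 ± 0.50, FDR 0.191). By class, 3 of 9 tested H2B genes and 1 of 8 H4 genes were called, and 0 of 9 H2A, 0 of 7 H3 and 0 of 1 H1 genes. At an unadjusted p under 0.05 these last 3 counts were 4, 1 and 0, beside 6910 of all 16006 tested genes, and voom called 1, 0 and 0.

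All 4 called replication-dependent genes were among the 18 tested genes with a polyA signal at their annotated end, and 0 of the other 16 tested genes were called. Of all tested genes 16.0% were called. At an unadjusted p under 0.05 there were 8 of 18 and 3 of 16 genes, beside 6910 of all 16006 tested genes. In voom 5 and 0 were called, beside 21.8% of all genes. The genes with a signal had higher levels (5 of 21 above 10 FPKM) and thus more reads for the test. Whether the level or the 3′ end goes with the calls was not tested. The groups rest on the annotated end, by which the near-identical copies HIST2H4A and HIST2H4B were placed apart. RNAs known to have no polyA tail were looked at beside these genes, because they enter such libraries only as carry-over. Of 11 listed ones, 7 were at 0 in every library, among them RN7SL1. The treatment of reads shared by several genes is not known here, so a 0 does not show absence from the library. RN7SL2, an RNA of the signal recognition particle, was at 103.2, 140.4 and 109.4 FPKM in Ctrl and 219.9, 209.7 and 148.0 FPKM in MIR21-KO, without overlap (log2 fold change 0.70 ± 0.19, FDR 0.0294 in limma and 0.00961 in voom). RPPH1 and SNORD3A, the other tested ones, stayed below 3 FPKM with overlapping groups. The part of carry-over in the histone values was not tested.

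Genes of histone mRNA metabolism had mostly negative fold changes. Of 18 tested genes of this list, 3 were called lower and 0 higher, beside 8.38% of all genes lower and 7.66% higher. A negative log2 fold change was found for 15 of them, beside 51.5% of all genes, and the median was -0.43, beside -0.02. NCBP1, a subunit of the nuclear cap-binding complex, fell by 0.63 (FDR 0.00348), SRRT, its partner in histone pre-mRNA processing, fell by 0.48 (FDR 0.00513) and ERI1, an exonuclease that trims and degrades histone mRNA, fell by 0.69 (FDR 0.00913). SLBP, which binds the stem-loop shown above, had 35.6, 35.8 and 37.7 FPKM in Ctrl and 29.5, 23.1 and 24.7 FPKM in MIR21-KO. The groups did not overlap (log2 fold change -0.50 ± 0.10, FDR 0.0115 in limma and 0.00534 in voom). NPAT, the coactivator of replication-dependent histone transcription, had 2.53, 2.41 and 2.07 FPKM and 1.07, 1.58 and 2.28 FPKM, with overlap (-0.54 ± 0.26, FDR 0.168). No gene of the list had a higher level at an unadjusted p under 0.05 in limma or in voom, which called 6 lower. With Ctrl replicate 1, 2 or 3 or MIR21-KO replicate 2 left out, limma called 0 of the 18 (7, 9, 7 and 7 at an unadjusted p under 0.05), against 4 without either of the other MIR21-KO libraries.

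Histone chaperones, which carry histones to DNA, had 6 of 22 tested genes lower and 0 higher, beside the same 8.38% and 7.66% of all genes, with 19 negative fold changes and a median of -0.25. ASF1A was higher at an unadjusted p under 0.05 (0.50, FDR 0.0235), and voom called 8 lower and 0 higher. CHAF1B and CHAF1A are subunits of CAF-1, which deposits H3 and H4 behind the replication fork. CHAF1B had 8.86, 7.74 and 8.37 FPKM in Ctrl and 4.49, 4.13 and 3.75 FPKM in MIR21-KO, and CHAF1A had 16.4, 16.3 and 16.4 FPKM and 10.1, 8.68 and 7.59 FPKM. The groups did not overlap for either subunit. CHAF1B fell by 0.997 (FDR 0.000911) and CHAF1A fell by 0.90 (FDR 0.00184). The other called genes were NASP, which binds H3 and H4 (-0.57, FDR 0.00365), the FACT subunits SSRP1 (-0.57, FDR 0.00272) and SUPT16H (-0.55, FDR 0.00230), and ANP32E, which removes H2A.Z from nucleosomes (-0.45, FDR 0.00982). The H3.3 chaperones HIRA and DAXX had log2 fold changes of -0.28 (FDR 0.103) and 0.03 (FDR 0.891). CENPA, the centromeric H3 variant that the naming rule does not cover, had 19.5, 22.4 and 20.7 FPKM in Ctrl and 15.1, 16.8 and 13.6 FPKM in MIR21-KO, without overlap (-0.46 ± 0.10, FDR 0.0144). With Ctrl replicate 1, 2 or 3 or MIR21-KO replicate 2 left out, limma called 1 of the 22, CHAF1B.

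S-phase and G2/M genes moved with these lists. Of the S-phase list distributed with the R package Seurat, 28 of 42 tested genes were called lower and 0 higher, at a median of -0.64 on the log2 scale, and of the G2/M list 25 of 54 were called lower and 0 higher, with a median of -0.56. These counts stand beside 8.38% of all genes lower. With Ctrl replicate 1, 2 or 3 or MIR21-KO replicate 2 left out, 12, 14, 12 and 13 S-phase genes and 8, 7, 7 and 7 G2/M genes were called lower, while the medians stayed between -0.69 and -0.63 and between -0.56 and -0.54 over all exclusions of a library. In neither list was a gene higher at an unadjusted p under 0.05, and voom called 32 and 36 lower and 0 higher. The summed level of the S-phase list was 1228 to 1255 FPKM in Ctrl and 822.3 to 910.2 FPKM in MIR21-KO. The S-phase list holds 2 genes of the histone mRNA list (SLBP and CASP8AP2) and 2 of the chaperone list (CHAF1B and NASP), the G2/M list holds ANP32E and HJURP, and neither list holds a histone gene. The sum of the replication-dependent histone genes, by comparison, overlapped between the groups. The part of cell-cycle composition in the histone values was not tested.

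Finally, histone 3′ UTRs were searched for sites of the deleted miRNA. The mature miR-21-5p (RefSeq, GRCh38, chr17:59841273-59841294, plus strand) is shown with its seed, bases 2 to 8, in capitals.
miR-21-5p: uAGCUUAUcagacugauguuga
The matching site ATAAGCT was searched on the transcript strand in the longest annotated 3′ UTR of 54 members. It occurred in 3 of them, H3F3B, HIST1H2BN and HIST1H4E, compared with 8.78% of 18989 genes. The longer site ATAAGCTA, which contains it, occurred in 0 members and in 2.46% of all genes. None of these genes was called. H3F3B is described above, HIST1H4E was at 0.375 to 0.879 FPKM with overlapping groups (0.51 ± 0.36, FDR 0.328), and HIST1H2BN was below the level for testing. The called genes H2AFZ, HIST2H2BE, HIST1H4H, HIST1H2BD and HIST1H2BJ held no match.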

How the data were processed

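From 6 A549 RNA samples, polyA RNA was selected on oligo(dT) beads for strand-specific libraries. According to the submitters' processing notes, the tools were cutadapt 1.14, HISAT2 2.1.0, SAMtools 1.5, featureCounts 1.5.3 and edgeR 3.18.1, with the genome build hg38. The annotation release, the strand setting and the treatment of reads shared by several genes are not given in the sources used here. The authors deposited a table of FPKM per library for 58174 genes, together with gene lengths and their own log2 fold changes, p-values and FDRs, and these 3 comparison columns were not used. FPKM times length was a whole number of reads (tolerance 0.01) for 100% of values, and the library sizes implied were 0.950 to 1.03 times the recovered totals, so a scaling by the authors is included.

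Sample titles gave the groups and replicates. The test was limma 3.58.1 on log2(FPKM + 0.1), for genes averaging 0.5 FPKM or more (R 4.3.3; eBayes with trend and robust, two-sided, Benjamini-Hochberg over 16006 genes, calls at FDR 0.01, the study's cutoff). Fold changes on this scale understate changes of low genes. A count model was not the main test, since FPKM are not counts, and voom was run on the recovered reads. Same-numbered libraries did not deviate together (correlations of deviations -0.17, -0.02 and -0.02), so no replicate block was used. On simulated data with 200 genes changed 2-fold among 15678 tested, limma recovered 141 with 6 false calls and voom 196 with 1. The changed genes were drawn from well-covered genes, the spread between libraries was set alike for all genes, and fewer genes changed than were called in the data. These rates therefore do not carry over to members with few reads. Annotation came from GENCODE 29, which matched all 91 members by identifier and 99.42% of all genes. Gene copies were compared by shared 100-base words of annotated transcripts, and 19 members shared over 50% of theirs with other gene entries. Figures were drawn with matplotlib 3.10.9.

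Named were the called members, the 9 replacement histones, the 8 most abundant replication-dependent genes, called genes of the processing and chaperone lists, SLBP, NPAT and CENPA; genes named for a copy, a neighbour, a miRNA site or a value near the threshold were added after their values were seen. The members and lists were chosen with earlier results of these data known.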

Additional observations from a re-analysis of the deposited data

How the results depend on the processing

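Of 14 named genes that were called, 1 (CHAF1B) stayed called under all 20 alternatives, and none of the 5 called histone genes did. No called gene changed direction. Another 9 named genes were called under no setting, and 6 of these took both signs. Leaving out 1 library, the calls ranged from 768 to 3400 over all genes, 1 to 5 for replication-dependent genes, 0 to 2 for variant genes, 0 to 4 for processing genes and 1 to 8 for chaperones. The medians ranged from -0.10 to 0.049 for replication-dependent and -0.01 to 0.13 for variant genes, and the ratio of summed replication-dependent FPKM from 0.934 to 1.07. With a replicate block limma called 651 genes, among them 0 replication-dependent, 0 variant, 0 processing and 1 chaperone gene, while 11, 3, 9 and 10 had an unadjusted p under 0.05. The numbers do not pair the libraries, so this is no sign of a weaker effect. At an FDR under 0.05 the counts were 5114, 8, 3, 7 and 10. With GC and length trends removed 3958 genes were called, with 7 replication-dependent, 2 variant and 9 processing genes. Processing genes numbered 1 without a filter on low values, 6 in voom and 6 with protein-coding genes only, and limma without trend and robust fitting called 1 of them and 0 variant genes (5 variant genes had an unadjusted p under 0.05 there, and voom called 1). The median of the replication-dependent genes was 0.10 without a filter and 0.10 with a mean of at least 10 reads. The causes were not tested. Scaling by median ratios or total reads shifted the median of all genes by 0.03 and -0.03 and changed none of these counts by over 1.5 times. Depth limits what can be said of the 45 members under 0.5 FPKM, and 7 tested replication-dependent genes had a mean under 10 reads.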
